A study of Mus musculus with 17 samples.

Results

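Homologous recombination and Fanconi genes were followed gene by gene in mouse mammary tumours and normal mammary tissue. The list held 33 genes chosen for their function, and a gene was measured where a probe set carried its symbol alone; where several did, the probe set with the highest mean was kept. By this rule 31 of the 33 genes were measured among 19938 genes in all, and Xrcc2 and Rbbp8 had no probe set of their own. Each sample was hybridised to 1 Affymetrix Mouse Gene 1.0 ST array, and values are log2 RMA levels, on which 1 unit is a doubling. The samples were 9 Rb/p53 tumours, 3 p53 tumours and 5 samples of normal mammary gland from mice of the Rb/p53 model. Both suppressor genes are labelled as deleted in the Rb/p53 tumours, 2 of which arose after adenoviral Cre (Ad-CMVcre, transplants) and 7 with the MMTV-Cre transgene. Of the MMTV-Cre tumours, replicate 1 came from a nulliparous host, replicate 2 from a parous host and replicates 3 to 7 from transplants. The p53 tumours carried MMTV-Cre with p53 deletion, and their host is not given. Every group had a mixed strain background. MMTV-Cre is driven by a mammary tumour virus promoter, which is active in mammary epithelium but also in some other tissues, and which exons it deletes was not stated in the labels. For p53 replicate 3 the title points to the Rb/p53 model but the tissue, source and description to deletion of p53, and the array was kept among the p53 tumours.

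Homologous recombination repairs a double-strand break by copying an intact sister chromatid, so it works mainly after DNA has been replicated. The break is sensed and signalled by kinases, its ends are resected, and Brca2 with its partners readies the single-stranded DNA for pairing with the sister. The Fanconi pathway unhooks crosslinks between DNA strands and hands the resulting break to the same machinery, and inherited loss of several of these genes predisposes people to breast cancer. Many of the genes are known to be transcribed most in proliferating cells.

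The tumours are described as independent. The normal samples have different identifiers in their titles, but the labels do not state that these are separate animals. A p-value here therefore reflects variation among these arrays. Precision is limited throughout by how few arrays each group has. The p53 replicate 2 array stood apart, with a correlation of 0.888 to 0.915 to the other arrays, whose own pairs reached at least 0.929. It and normal replicate 1 had the lowest mean over the 31 genes (7.81 and 7.80, against 8.31 to 8.88 on the other 15 arrays). Rb1, the targeted gene with a probe set of its own, had its lowest mean in the Rb/p53 tumours (9.54 ± 0.23, SD, n = 9), a middle one in the p53 tumours (10.40 ± 0.55, n = 3) and its highest in the normal samples (11.21 ± 0.27, n = 5). A residual Rb1 level does not check deletion in a tumour, because a whole-transcript probe set also reads exons that remain. No probe set carried Trp53 alone, so it was not analysed here.

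Promoters were read for these genes as well. RefSeq promoter windows of the GRCm38.p6 build, 250 bases before to 50 after the start, were given for 25 of the 31 measured genes. An E2F site, searched on both strands as TTTCCCGC, TTTGGCGC, TTTCGCGC or TTTGCCGC, was found in 5 of these 25 genes (20%) and in 2.6% of the 27025 genes of the table. The cell cycle homology letters TTTGAA stood in 2 of the 25 genes (8%) and in 20.2% of all genes. E2F letters were found in 1 of the 7 genes with a window that rose in Rb/p53 tumours against normal tissue, and in 4 of the other 18. The 5 promoters that hold E2F letters follow in full, 5′ to 3′, because they are the windows in which a match to the factor restrained by the Rb protein can be read. Capitals mark the E2F letters or their reverse complement, and positions count from the annotated start. The windows are chr11:87404457-87404756 on the minus strand for Rad51c (site at 11), chr1:71102923-71103222 on the minus strand for Bard1 (site at -209), chr5:150522371-150522670 on the plus strand for Brca2 (site at -168), chr5:110839733-110840032 on the plus strand for Chek2 (site at -152) and chr4:43010252-43010551 on the minus strand for Fancg (site at -52). A further Rad51c window at chr11:87404905-87405204 held a site at -5 and is not printed. A match is a description of letters and shows no binding.

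Rad51c: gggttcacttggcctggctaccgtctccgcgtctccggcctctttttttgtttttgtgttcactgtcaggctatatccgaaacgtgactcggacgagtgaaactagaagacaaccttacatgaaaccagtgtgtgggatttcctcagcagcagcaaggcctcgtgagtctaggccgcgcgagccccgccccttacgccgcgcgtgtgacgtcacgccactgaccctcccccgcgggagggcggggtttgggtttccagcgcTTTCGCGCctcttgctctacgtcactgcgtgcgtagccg
Bard1: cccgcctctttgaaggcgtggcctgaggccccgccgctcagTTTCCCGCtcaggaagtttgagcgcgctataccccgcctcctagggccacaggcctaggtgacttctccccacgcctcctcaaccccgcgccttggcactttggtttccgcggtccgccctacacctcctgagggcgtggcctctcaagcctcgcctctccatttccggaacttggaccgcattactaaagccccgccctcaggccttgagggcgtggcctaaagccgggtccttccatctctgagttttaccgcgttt
Brca2: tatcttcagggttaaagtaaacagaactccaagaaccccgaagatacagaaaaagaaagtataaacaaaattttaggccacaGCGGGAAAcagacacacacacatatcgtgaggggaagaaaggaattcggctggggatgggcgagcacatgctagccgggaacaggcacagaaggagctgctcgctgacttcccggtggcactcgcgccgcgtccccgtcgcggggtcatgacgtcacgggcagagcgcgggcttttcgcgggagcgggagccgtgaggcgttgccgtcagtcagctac
Chek2: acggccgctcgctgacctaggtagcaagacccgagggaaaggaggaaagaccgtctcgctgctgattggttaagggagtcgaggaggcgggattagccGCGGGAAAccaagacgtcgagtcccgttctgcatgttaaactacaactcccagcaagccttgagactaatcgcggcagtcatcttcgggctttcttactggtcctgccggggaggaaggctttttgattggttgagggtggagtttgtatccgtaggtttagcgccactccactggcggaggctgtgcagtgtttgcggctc
Fancg: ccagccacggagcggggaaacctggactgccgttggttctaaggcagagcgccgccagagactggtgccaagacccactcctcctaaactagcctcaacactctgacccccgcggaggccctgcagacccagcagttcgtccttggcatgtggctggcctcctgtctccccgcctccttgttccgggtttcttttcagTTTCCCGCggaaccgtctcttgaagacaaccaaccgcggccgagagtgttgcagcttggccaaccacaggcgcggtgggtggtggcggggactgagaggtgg

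The first comparison set Rb/p53 tumours against normal mammary tissue and asked how the genes stand when Rb1 and Trp53 are both deleted. In these tumours 8 of the 31 genes rose and 1 fell, while 22 did not pass the test. Rad51c, Fancd2, Brip1 and Brca1 rose 2.05- to 2.63-fold, and Atm, Rad51b, Fancb and Palb2 rose by 0.34 to 0.67 on the log2 scale. Rad51d was the gene that fell. Higher calls made up 25.8% of the genes, against 14.2% of all genes tested, and calls in either direction 29%, against 27.6%. At an unadjusted p below 0.05 there were 20 of the 31 genes, against 37.2% of all genes. A share of calls in either direction this near the background is not a result about these genes as a group. Their median log2 fold was 0.45, against 0.03 for all genes, and 26 of 31 folds were positive. Calls are limma adjusted p-values below 0.05, with p adjusted by the Benjamini-Hochberg method over all genes.

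**Figure D1:**
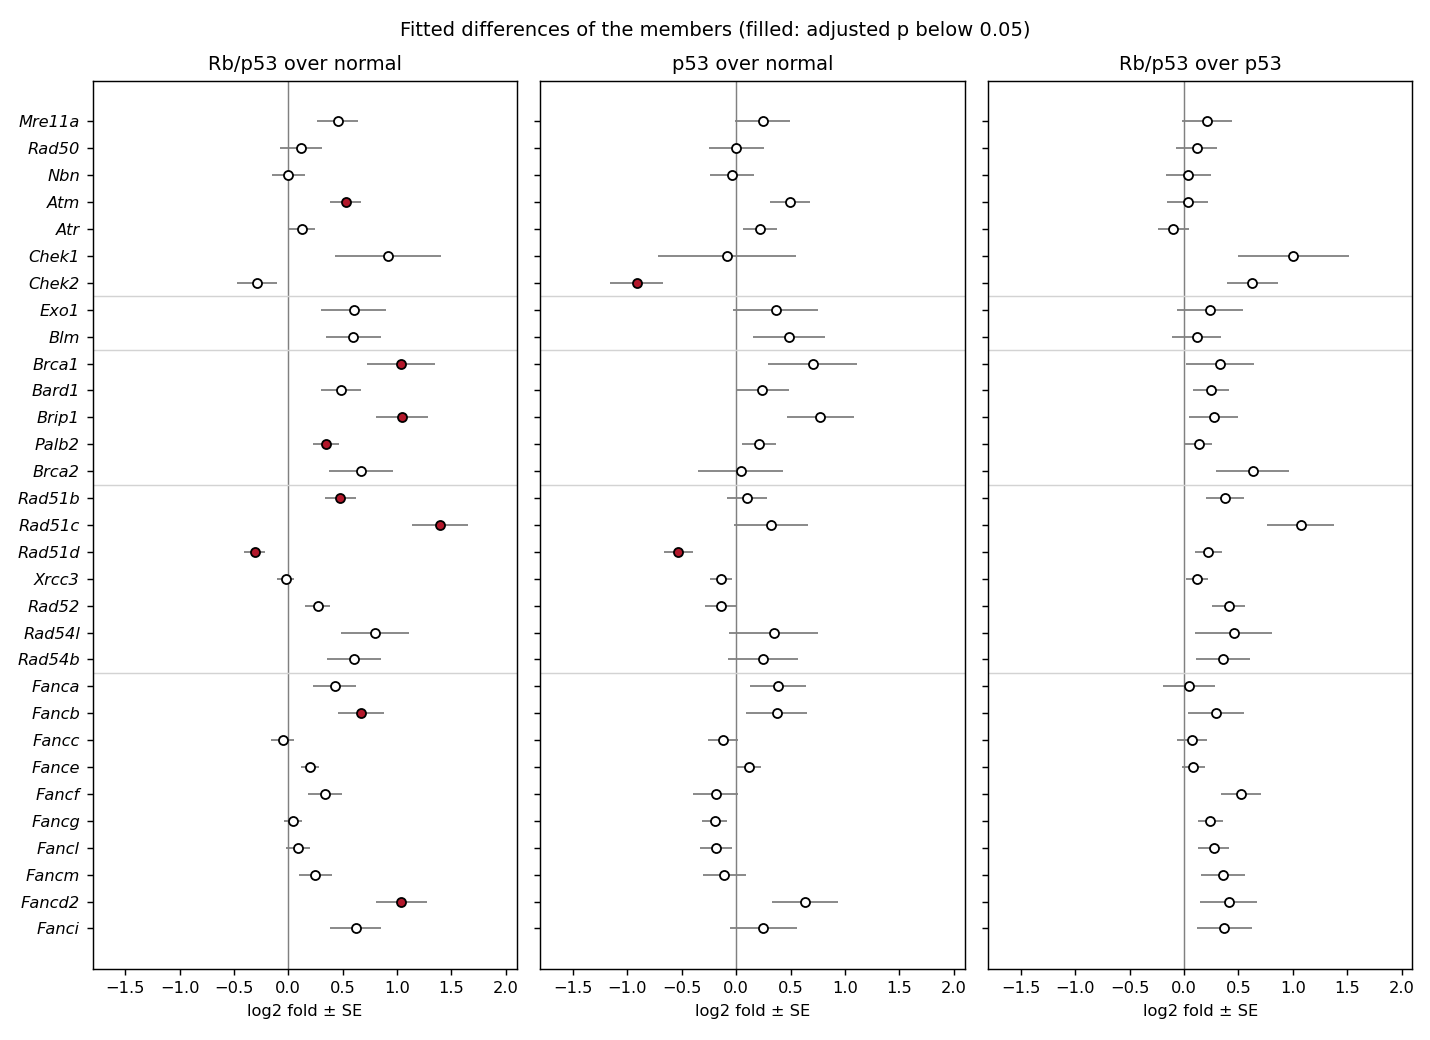
Fitted log2 fold ± SE of the 31 measured genes, in order of role from break signalling at the top to the Fanconi complexes at the bottom, for Rb/p53 over normal, p53 over normal and Rb/p53 over p53. Filled points passed an adjusted p of 0.05: 9 genes in the left panel, 2 in the middle panel and 0 in the right panel.

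Among the genes that sense and signal breaks, only Atm passed the test. Atm, the kinase activated at double-strand breaks, ranged from 8.94 through a median of 9.15 to 9.46 in the 9 Rb/p53 tumours, against 8.46, 8.77, 8.55, 8.68 and 8.87 in normal replicates 1 to 5. Every Rb/p53 tumour lay above every normal sample. The log2 fold was 0.53 ± 0.14 (SE, adjusted p = 0.011), and Atm was the only one of the 31 genes without overlap upwards, where 7.9% of all genes had none. Chek1, the kinase that restrains the cycle when replication stalls, was at 9.87 ± 0.40 (SD, n = 9) in Rb/p53 tumours, against 8.96 ± 1.16 (SD, n = 5) in normal tissue, a log2 difference of 0.92 ± 0.48 (SE, adjusted p = 0.186). Its normal spread came mostly from replicate 1 at 6.94, with the other normal samples at 9.12 to 9.87. Chek2, the kinase downstream of Atm, had a difference of -0.29 ± 0.18 (adjusted p = 0.284). The nuclease Mre11a (0.45 ± 0.19, adjusted p = 0.0903) and its partners Rad50 (0.12 ± 0.19) and Nbn (0.00 ± 0.15), which tether and signal broken ends, did not pass, nor did Atr, the kinase of stalled forks (0.12 ± 0.12). Both Nbn probe sets had a difference near 0 (0.00 and -0.07).

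The resection and unwinding genes did not pass. Exo1, an exonuclease that resects break ends, had a log2 difference of 0.60 ± 0.30 (adjusted p = 0.159). Blm, a helicase that dissolves joined DNA molecules, had a difference of 0.60 ± 0.25 (adjusted p = 0.0875).

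Of the Brca genes, 3 of 5 rose. Brip1, a helicase that binds Brca1, ranged from 8.29 through a median of 8.78 to 8.96 in Rb/p53 tumours, against 6.72, 7.90, 7.69, 7.55 and 8.44 in normal replicates 1 to 5. The groups overlapped by a single tumour, MMTV-Cre replicate 6, which lay below normal replicate 5. The log2 fold was 1.05 ± 0.24 (SE, adjusted p = 0.00318). Brca1, a ubiquitin ligase subunit that promotes resection and recruits the later factors, ranged from 8.55 through 9.07 to 9.17 in Rb/p53 tumours, against 6.62, 8.21, 7.96, 8.10 and 8.79 in normal tissue. Here too the overlap was MMTV-Cre replicate 6 alone, and the fold was 1.04 ± 0.32 (SE, adjusted p = 0.0206). Palb2, the bridge between Brca1 and Brca2, rose by 0.34 ± 0.12 (adjusted p = 0.0419), with 6.98 to 7.61 in Rb/p53 tumours and 6.40 to 7.22 in normal tissue. Bard1, the ligase partner of Brca1 whose promoter is shown above, had a difference of 0.49 ± 0.19 (adjusted p = 0.0638). Its 3 probe sets differed by 0.37, 0.49 and 0.68. Brca2, which Palb2 brings to the break, had a difference of 0.67 ± 0.30 (adjusted p = 0.108).

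Rad51c and Rad51b rose and Rad51d fell in the group that also held Xrcc3 and the Rad52 and Rad54 genes. Rad51c, a subunit that forms complexes with Rad51b and with Xrcc3, ranged from 8.30 through 9.09 to 9.91 in Rb/p53 tumours, against 7.09, 7.72, 7.52, 7.82 and 8.41 in normal replicates 1 to 5. All tumours except MMTV-Cre replicate 6 lay above the highest normal sample. The log2 fold of 1.39 ± 0.26 (SE, adjusted p = 0.000673) was the largest among the 31 genes. Rad51b, a partner of Rad51c, ranged from 7.45 through 7.96 to 8.33 in Rb/p53 tumours, against 7.11, 7.59, 7.49, 7.33 and 7.76 in normal tissue. Ad-Cre replicate 2 and MMTV-Cre replicate 6 lay within the normal range, and the fold was 0.48 ± 0.14 (SE, adjusted p = 0.0182). Rad51d, which joins the same complex, ranged from 8.56 through 8.79 to 9.05 in Rb/p53 tumours, against 9.42, 9.11, 9.07, 9.10 and 8.95 in normal tissue. MMTV-Cre replicates 1 and 4 overlapped the normal range, and Rad51d fell by 0.31 on the log2 scale (SE 0.10, adjusted p = 0.0292). The remaining members of this group did not pass: the annealing protein Rad52 (0.27 ± 0.11, adjusted p = 0.0879), the translocases Rad54l (0.80 ± 0.31, adjusted p = 0.0681) and Rad54b (0.60 ± 0.25, adjusted p = 0.0803), and Xrcc3, the partner of Rad51c (-0.03 ± 0.08, adjusted p = 0.867).

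Of the Fanconi genes 2 of 10 rose. Fancd2, which is ubiquitinated when the core complex finds a crosslink, ranged from 7.66 through 8.32 to 8.65 in Rb/p53 tumours, against 6.56, 7.41, 7.09, 7.01 and 7.84 in normal replicates 1 to 5. MMTV-Cre replicates 2 and 6 lay below normal replicate 5 and the other 7 tumours above it, and the log2 fold was 1.04 ± 0.23 (SE, adjusted p = 0.00282). Fanci, its partner in the ubiquitinated pair, had a difference of 0.62 ± 0.24 (adjusted p = 0.0609). Fancb, a core complex subunit, ranged from 8.18 through 8.44 to 8.63 in Rb/p53 tumours, against 7.21, 7.82, 7.85, 7.67 and 8.20 in normal tissue. The overlap was 1 tumour, MMTV-Cre replicate 4, just under normal replicate 5. Fancb rose by 0.67 ± 0.21 (SE, adjusted p = 0.027). The other core and anchor genes did not pass: Fanca (0.43 ± 0.20), Fancf (0.34 ± 0.16), the translocase Fancm (0.25 ± 0.15), Fance (0.20 ± 0.08), the ligase subunit Fancl (0.09 ± 0.11), Fancg (0.04 ± 0.09) and Fancc (-0.05 ± 0.10), with adjusted p of 0.0849 to 0.793.

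**Figure D2:**
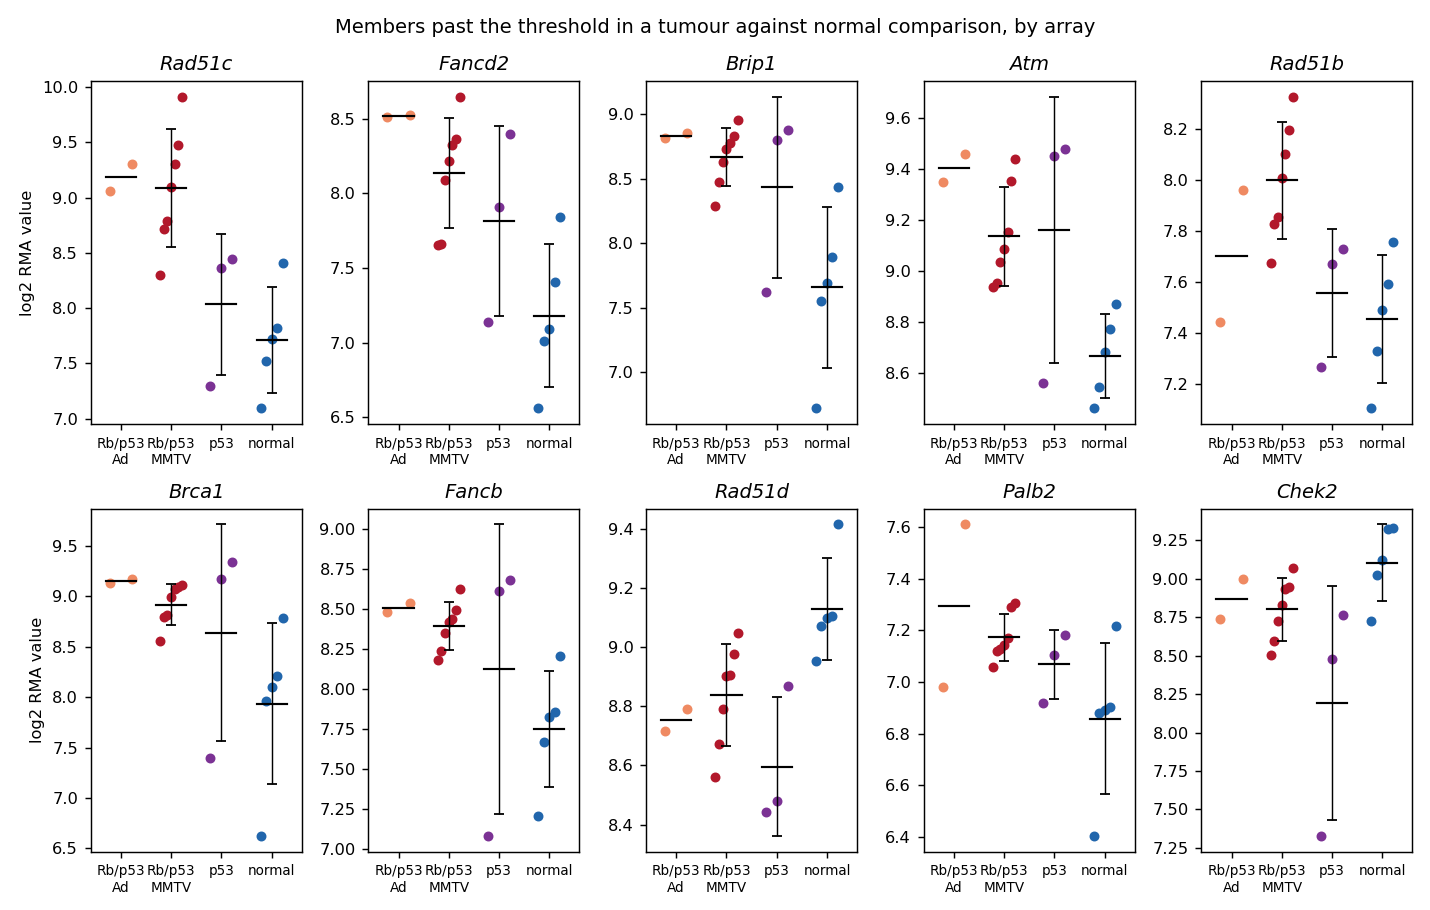
Log2 RMA value on each array of the 10 genes that passed the test in Rb/p53 or p53 tumours against normal tissue. Points are arrays, horizontal lines group means, and whiskers the SD where a group has over 2 arrays; each panel has its own vertical axis. The Atm panel shows no overlap between Rb/p53 tumours (8.94 and above) and normal samples (8.87 and below), and p53 replicate 2 is the low purple point in most panels.

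The normal samples themselves spread widely. Replicate 5 was the highest and replicate 1 the lowest normal sample for each of the 8 genes that rose. Without normal replicate 1 only Rad51c, Fancd2, Brip1 and Atm passed; Brca1 (0.71, adjusted p = 0.0739), Rad51b (0.39, adjusted p = 0.0688), Fancb (0.53, adjusted p = 0.098), Palb2 (0.23, adjusted p = 0.156) and Rad51d (-0.24, adjusted p = 0.109) did not. Without normal replicate 4, Rad51b (adjusted p = 0.0511), Fancb (0.0615), Palb2 (0.0739) and Rad51d (0.0526) were lost, and Rad51d was also lost without normal replicate 2 (0.0529). Palb2 was lost as well without Ad-Cre replicate 2, without MMTV-Cre replicate 1, 4, 5 or 7, and without normal replicate 2 or 3 (adjusted p = 0.0531 to 0.0681). Without normal replicate 5, or without p53 replicate 2, which shares the estimate of spread, 15 genes passed upwards. Without normal replicate 5, calls in either direction were 24.6% of all genes (2414 of them higher), and without p53 replicate 2 they were 33.7% (3676 higher). Without normal replicate 1 they were 22.1% (2106 higher).

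Other gene lists of repair and proliferation were read beside these genes. Of 34 measured recombination and Fanconi partners 12 rose and 1 fell (median log2 fold 0.29), among them the nuclease scaffold Slx4 (0.47 ± 0.09), the ubiquitin ligase Rfwd3 (0.77 ± 0.17) and Rpa1, which coats single-stranded DNA (0.74 ± 0.17). Of 18 checkpoint partners 10 rose (median 0.49), with the phosphatase Cdc25c at 1.43 ± 0.30 and the clamp subunits Rad1 and Rad9a at 0.68 ± 0.17 and 0.57 ± 0.15. Of 10 end joining genes 4 rose (median 0.40), namely Xrcc4, the ligase cofactor (0.66 ± 0.13), the polymerase Polm (0.88 ± 0.23), the end-binding subunit Xrcc6 (0.68 ± 0.20) and 1 other. Of 26 mismatch and excision repair genes 8 rose and 1 fell (median 0.17). Ddb1 (0.78 ± 0.16) and the mismatch repair gene Pms2 (0.47 ± 0.13) rose, and Ddb2, a damage sensor and p53 target, fell by 0.56 (SE 0.13). Replication genes moved more: 20 of 27 E2F and replication genes (median 0.96) and 22 of 26 mitosis genes (median 1.43) rose, and none of either list fell. Rfc3, a clamp loader subunit (1.60 ± 0.34), the thymidine kinase Tk1 (1.08 ± 0.24) and the licensing factor Cdt1 (1.17 ± 0.28) were the replication genes with the smallest adjusted p, as were Birc5, survivin (1.28 ± 0.27), the kinesin Kif2c (1.73 ± 0.37) and the checkpoint kinase Bub1b (1.62 ± 0.35) among mitosis genes.

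The mean over the 31 genes and the means of the proliferation lists were lowest on the same arrays, but the mitosis mean ranked the tumours differently. The mitosis mean ran from 9.95 to 10.66 in Rb/p53 tumours, was 10.76, 8.38 and 10.35 in p53 replicates 1 to 3, and was 7.45, 9.31, 9.05, 8.82 and 9.88 in normal replicates 1 to 5. Normal replicate 1 and p53 replicate 2 were lowest on both scales, and normal replicate 5, highest of the normal samples on both, lay next to the tumours. The array with the highest mitosis mean, p53 replicate 1, had a mean of 8.75 over the 31 genes, within the Rb/p53 range of 8.48 to 8.88. Among Rb/p53 tumours the mitosis mean was lowest in MMTV-Cre replicate 7, and the mean over the 31 genes in MMTV-Cre replicate 6. The mean of the E2F and replication genes had the same lowest and highest Rb/p53 tumours as the 31 genes. It was 9.84 in MMTV-Cre replicate 6 and 10.465 in MMTV-Cre replicate 5. With the mitosis mean of each array as a covariate, 0 of the 31 genes passed upwards and Chek1 and Chek2 passed downwards. In that fit 14.2% of all genes were called, 1132 of them higher and 1707 lower. The Rad51c fold was then 0.68 ± 0.27 (SE, adjusted p = 0.0987), Fancd2 0.33 (adjusted p = 0.298) and Brip1 0.19 (adjusted p = 0.359), while Brca1 and Fancb turned to -0.15 and -0.07. That covariate itself differs between tumours and normal tissue, so proliferation and tumour status cannot be told apart in this fit.

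**Figure D3:**
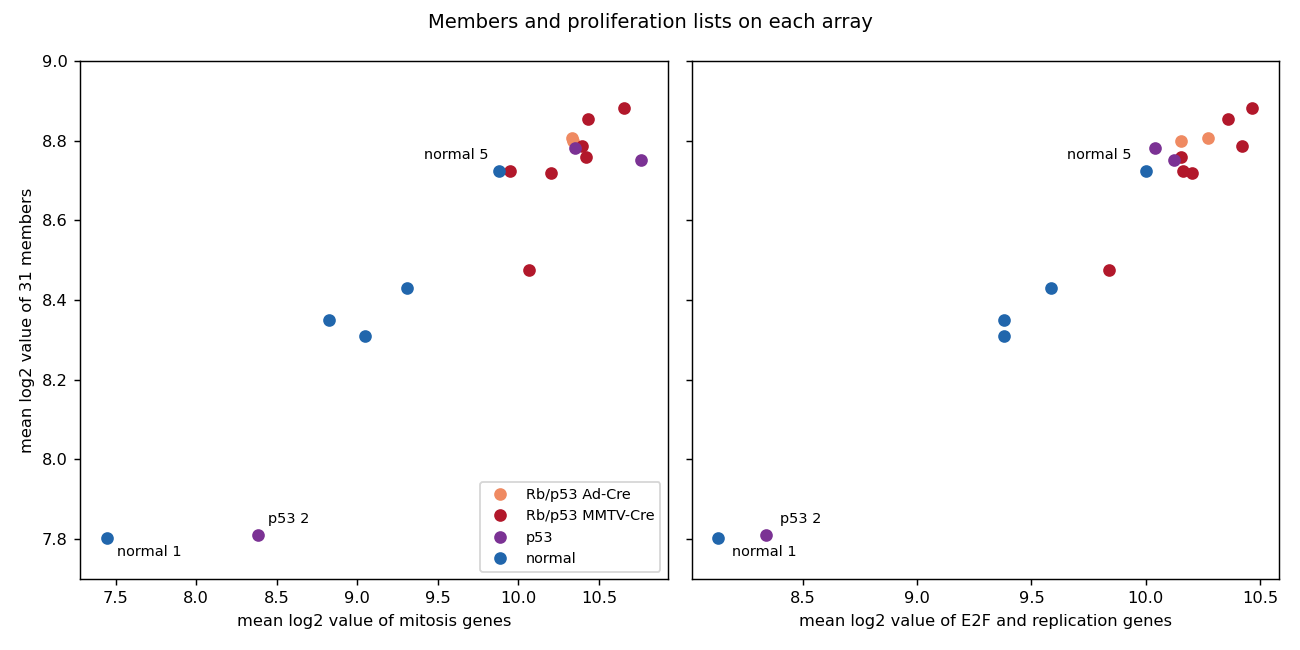
Mean log2 value of the 31 measured genes on each array (vertical) against the mean of 26 mitosis genes (left) and of 27 E2F and replication genes (right). Points are arrays coloured by group; p53 replicate 2 and normal replicate 1 lie at the lower left, near 7.81 and 7.80 on the vertical axis, and normal replicate 5 lies at 8.72 among the tumours.

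The cell make-up of the samples differed as well. All 9 measured adipocyte markers fell in Rb/p53 tumours, with a list mean of 7.48 to 8.56 in the tumours and 12.44 to 12.95 in normal tissue. Of the luminal markers 10 of 12 fell (list mean 8.21 to 9.94 in tumours, 10.63 to 10.80 in normal tissue) and of the basal markers 7 of 8 (7.85 to 8.87 in tumours, 10.39 to 10.83 in normal tissue). Markers of mammary epithelium, the labelled tissue, were thus lower in the tumours. All 5 skeletal muscle markers fell, as did 3 of 4 B and plasma cell, 3 of 8 fibroblast and 2 of 5 endothelial markers. Of the T and NK cell markers 1 of 7 rose and 3 fell, and of the macrophage markers 2 of 6 rose and 1 fell. The part of these shifts in the values of the 31 genes was not tested, and in such bulk tissue fewer cells of a type and less RNA per cell cannot be told apart.

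The second comparison set p53 tumours against normal tissue, and its values share their control samples with the first. None of the 31 genes rose and 2 fell, Rad51d and Chek2. At an adjusted p below 0.05 limma called 8.34% of all genes higher and 12.1% lower, 20.4% in either direction. Of the 31 genes 4 had an unadjusted p below 0.05, against 35.4% of all genes. The median log2 fold of the 31 genes was 0.21, against 0.09 for all genes.

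Rad51d read 8.48, 8.44 and 8.87 in p53 replicates 1 to 3, against 8.95 to 9.42 in the normal samples listed above. All 3 tumours lay below every normal sample, as 13.5% of all genes did, and Rad51d was the only one of the 31 to do so. It fell by 0.53 on the log2 scale (SE 0.13, adjusted p = 0.00848). Chek2 read 8.48, 7.33 and 8.76 in the p53 tumours, against 8.73, 9.03, 9.33, 9.12 and 9.32 in normal replicates 1 to 5. The groups overlapped, since p53 replicate 3 lay above normal replicate 1, and replicate 2 was far below the other tumours. Chek2 fell by 0.92 (SE 0.24, adjusted p = 0.0126), a call lost without p53 replicate 2 (-0.48, adjusted p = 0.0576).

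The next 6 genes by adjusted p did not pass. Atm read 9.45, 8.56 and 9.48 in the p53 tumours, against 8.46 to 8.87 in normal tissue, with a log2 difference of 0.50 ± 0.19 (SE, adjusted p = 0.0723). Brip1 read 8.80, 7.62 and 8.88, against 6.72 to 8.44 in normal tissue (0.77 ± 0.31, adjusted p = 0.0861). Fancd2 read 8.40, 7.14 and 7.91, against 6.56 to 7.84 in normal tissue (0.63 ± 0.30, adjusted p = 0.146). In these 3 genes p53 replicates 1 and 3 lay above every normal sample and replicate 2 lay within the normal range. Fancg, a core complex subunit, read 8.75, 8.82 and 9.10 in the p53 tumours, against 9.10, 9.14, 9.16, 8.96 and 9.08 in normal replicates 1 to 5 (-0.20 ± 0.11, adjusted p = 0.216). Brca1 read 9.18, 7.40 and 9.34, against 6.62 to 8.79 in normal tissue (0.70 ± 0.41, adjusted p = 0.231). Blm read 9.06, 7.68 and 8.39, against 6.76, 8.20, 7.88, 8.01 and 8.60 in normal tissue (0.49 ± 0.33, adjusted p = 0.297). Replicate 2 was again the lowest p53 tumour for Brca1 and Blm, but not for Fancg. The other 23 genes had differences of -0.19 to 0.38 with adjusted p of 0.298 or more.

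The count changed without p53 replicate 2. In that fit 21.2% of all genes were called, 2073 of them higher, and 7 of the 31 genes passed upwards, namely Atm (0.80, adjusted p = 0.0017), Fancb (0.90, adjusted p = 0.0028), Brip1 (1.18, adjusted p = 0.0103), Brca1 (1.32, adjusted p = 0.0171), Mre11a (0.65, adjusted p = 0.0318), Fancd2 (0.97, adjusted p = 0.0359) and Fanca (0.73, adjusted p = 0.0468). Rad51c did not (0.69, adjusted p = 0.195). The replicate 2 array, besides standing apart over all probe sets, had a mitosis mean of 8.38, whereas replicates 1 and 3 had 10.76 and 10.35; the part of this in its low values was not tested. Without normal replicate 5, where 17.9% of all genes were called (1311 of them higher), Brip1 alone passed upwards (adjusted p = 0.0296).

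**Figure D4:**
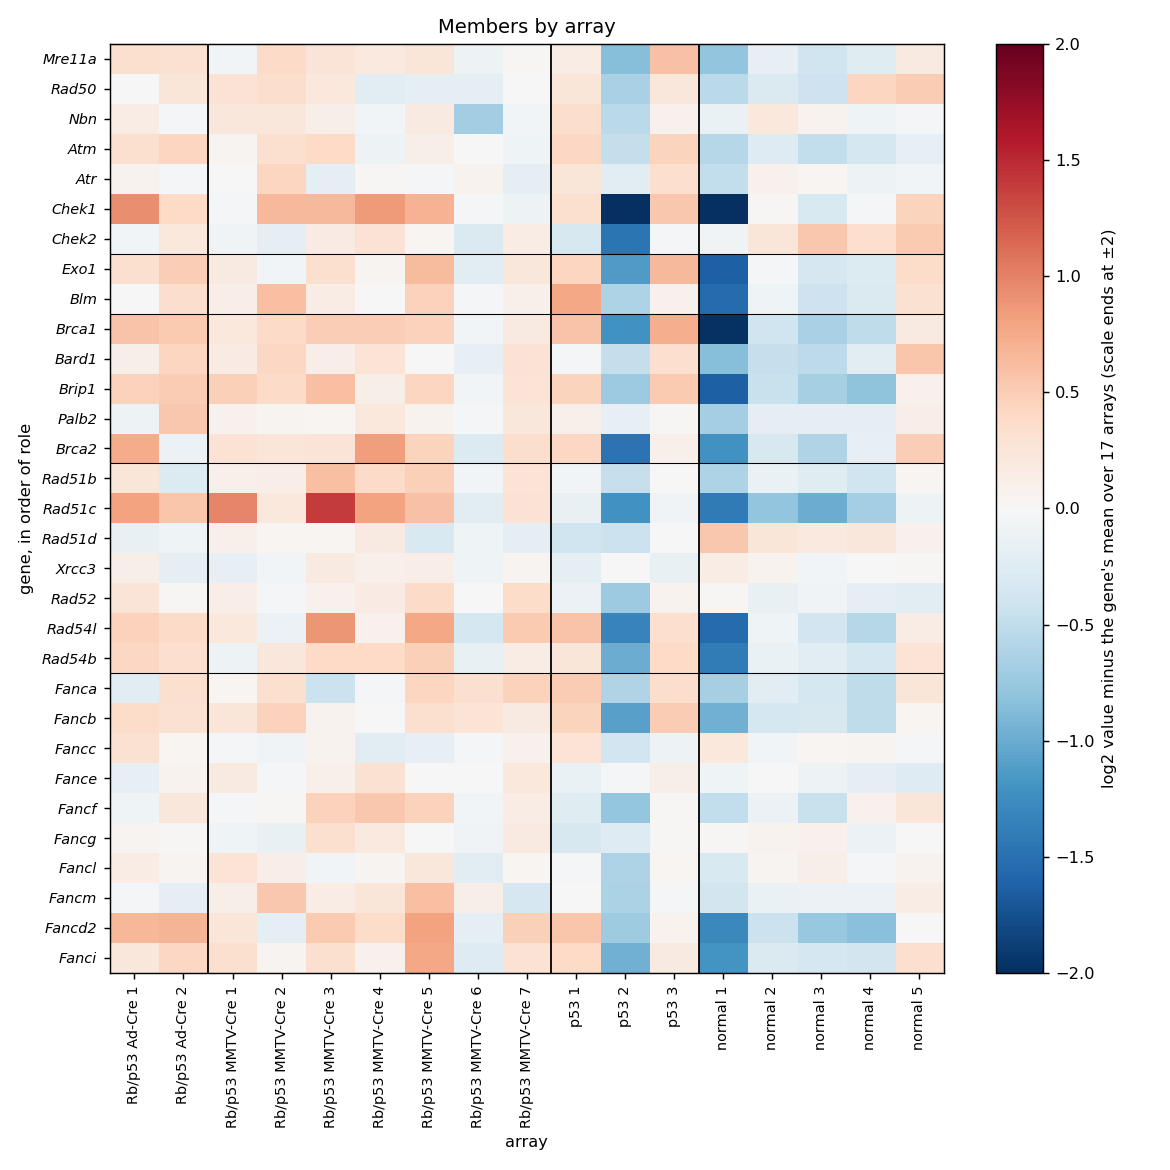
Log2 value of each of the 31 measured genes minus its mean over the 17 arrays, with genes in rows by role and arrays in columns (Rb/p53 Ad-Cre, Rb/p53 MMTV-Cre, p53, normal). Red is above and blue below the gene's mean, with the scale ending at 2 either way; the columns of p53 replicate 2 and normal replicate 1 are blue for most genes, with means of 7.81 and 7.80.

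Among the partner lists in p53 tumours, 3 of 34 recombination and Fanconi partners rose, namely the nuclease Dna2 (0.88 ± 0.24), Slx4 (0.39 ± 0.12) and the polymerase Polq (0.65 ± 0.22). The checkpoint phosphatases Cdc25b (0.80 ± 0.27) and Cdc25c (1.15 ± 0.40) rose among 18 checkpoint partners, and Xrcc4 (0.58 ± 0.17) rose among 10 end joining genes. Of the 26 mismatch and excision repair genes 3 fell, namely Ddb2 (by 0.83, SE 0.17), the lesion sensor Xpc (by 0.26, SE 0.08) and the glycosylase Mutyh (by 0.39, SE 0.13). No E2F and replication gene and no mitosis gene passed the limma test. At an unadjusted p below 0.05 there were 0 of 27 and 13 of 26, with medians of 0.23 and 0.97. All 9 adipocyte, 8 of 12 luminal and 6 of 8 basal markers fell and 5 of 6 macrophage markers rose, and their part in these values was not tested.

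The tumour genotypes were compared directly on the 12 tumour arrays to ask how Rb/p53 tumours differ from p53 tumours. Of the 9 Rb/p53 tumours 7 were transplants, 2 of them after adenoviral Cre. The p53 tumours carried MMTV-Cre, and their host is not given. Genotype thus cannot be told apart from host, nor in this fit from Cre route. None of the 31 genes passed in either direction, and limma called 1 of all genes tested (0.00502%). At an unadjusted p below 0.05 there were 5 of the 31 genes and 20.6% of all genes. For none of the 31 did the arrays of the groups fail to overlap, as happened upwards for 1.67% and downwards for 1.47% of all genes. The median log2 difference of the 31 genes was 0.27, against -0.03 for all genes, and 30 of 31 were positive. Some other lists also had differences of 1 sign, with no gene past the adjusted threshold. All 27 E2F and replication genes had a positive difference (median 0.69, 14 with an unadjusted p below 0.05), as did all 26 mitosis genes (median 0.47, 3 below 0.05). All 6 macrophage markers were lower in Rb/p53 tumours (median -1.07, 4 below 0.05), with a list mean of 10.01 to 10.95 in Rb/p53 tumours, against 10.54, 12.47 and 11.35 in p53 replicates 1 to 3. The part of these lists in the values of the 31 genes was not tested.

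Rad51c had the largest difference, at 9.11 ± 0.47 (SD, n = 9) in Rb/p53 tumours and 8.04 ± 0.64 (SD, n = 3) in p53 tumours (1.07 ± 0.31 SE, adjusted p = 0.154). The p53 tumours read 8.36, 7.30 and 8.45, of which replicates 1 and 3 lay above the lowest Rb/p53 tumour (8.30) and below the other 8. The core complex subunit Fancf (0.52 ± 0.18, adjusted p = 0.181), Rad52 (0.41 ± 0.15, adjusted p = 0.195), Chek2 (0.63 ± 0.24, adjusted p = 0.197) and Rad51b (0.38 ± 0.17, adjusted p = 0.238) were the other 4 with an unadjusted p below 0.05. Chek1 had a difference of 1.00 ± 0.51 (adjusted p = 0.266), with 9.33 to 10.36 in Rb/p53 tumours and 9.75, 6.89 and 9.96 in p53 replicates 1 to 3, so replicate 2 alone lay outside the Rb/p53 range. Brca1 (0.33 ± 0.31) and Brca2 (0.63 ± 0.34) had adjusted p of 0.512 and 0.281, and Atm (0.03 ± 0.19), Fanca (0.04 ± 0.24) and Nbn (0.04 ± 0.21) lay close to 0. With the Ad-Cre tumours left out, none of the 31 genes passed, where 0.00502% of all genes were called. The median difference of the 31 genes was then 0.24, against -0.03 for all genes. Rad51c was at 1.05 ± 0.35 (SE, adjusted p = 0.264). Genotype and host still cannot be told apart in that fit.

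Without p53 replicate 2 the median difference of the 31 genes was 0.015, against -0.005 for all genes. None of the 31 passed in that fit, which called 0.01% of all genes. Rad51c was at 0.70 ± 0.32 (SE, adjusted p = 0.593) and Brca1 at -0.29 (adjusted p = 0.66). Without p53 replicate 3, whose title names the other model, Chek2 passed (0.91, adjusted p = 0.0469), and with that array counted as an Rb/p53 tumour Chek2, Rad52 and Fancf passed (adjusted p = 0.0337, 0.0411 and 0.0438). Calls in either direction were 6.81% of all genes in the first of these fits (847 of 1358 higher) and 10.3% in the second (1113 of 2044 higher), so these counts of 1 and 3 of 31 are not results about the genes as a group.

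Ad-Cre and MMTV-Cre Rb/p53 tumours were compared to see whether the way Cre was delivered goes with a difference. None of the 31 genes passed at an adjusted p below 0.05, nor did any have an unadjusted p below 0.05, where limma called 1 of all genes tested (0.00502%) and 2.07% of all genes had an unadjusted p below 0.05. Log2 differences ran from -0.32 ± 0.24 (SE) for Fancm to 0.38 ± 0.31 for Fancd2, with a median of 0.09, against -0.02 for all genes. Fancd2 read 8.51 and 8.53 in the 2 Ad-Cre tumours, against 7.66 to 8.65 in the 7 MMTV-Cre tumours. Brca1 read 9.17 and 9.13 in Ad-Cre tumours, above the 8.55 to 9.11 of MMTV-Cre tumours without overlap, yet the difference was 0.23 ± 0.39 (SE). Of all genes 1.98% lay without overlap upwards and 3.05% downwards. Rad51b read 7.96 and 7.45 in Ad-Cre tumours, against 7.67 to 8.33 in MMTV-Cre tumours (-0.29 ± 0.20), and Palb2 read 6.98 and 7.61, which span the MMTV-Cre range of 7.06 to 7.31. For Rad51c the difference was 0.10 ± 0.39 (SE) and for Brip1 0.16 ± 0.28. With 2 Ad-Cre tumours, values that miss the threshold do not show that the routes act alike.

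Set against normal tissue one Cre route at a time, with the same normal samples in both, Rad51c had a log2 fold of 1.47 ± 0.37 (SE, adjusted p = 0.0319) in Ad-Cre tumours and 1.37 ± 0.29 (adjusted p = 0.00278) in MMTV-Cre tumours. Fancd2 had 1.34 ± 0.36 (adjusted p = 0.0449) in Ad-Cre tumours and 0.96 ± 0.25 (adjusted p = 0.0112) in MMTV-Cre tumours. Both genes passed by either route. Brip1 (1.17, adjusted p = 0.129, in Ad-Cre tumours and 1.01, adjusted p = 0.0113, in MMTV-Cre tumours) and Atm (0.74, adjusted p = 0.0872, in Ad-Cre tumours and 0.47, adjusted p = 0.0355, in MMTV-Cre tumours) passed with MMTV-Cre tumours and missed the threshold with Ad-Cre tumours. So did Rad51b, with 0.25 (adjusted p = 0.576) in Ad-Cre tumours and 0.54 (adjusted p = 0.00951) in MMTV-Cre tumours. Brca1, Fancb, Palb2 and Rad51d passed by neither route alone, with adjusted p of 0.207 to 0.304 in Ad-Cre tumours and 0.0532 to 0.0707 in MMTV-Cre tumours. Over all genes 9.89% were called with Ad-Cre tumours alone and 24.4% with MMTV-Cre tumours alone. In MMTV-Cre replicates 1 and 2, the 2 tumours without a transplant label, Rad51c had a fold of 1.38 ± 0.39 (adjusted p = 0.0527). None of the 31 genes passed in that fit, which called 10.1% of all genes.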

How the data were processed

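Total RNA from each sample was hybridised to an Affymetrix array, per the labels' protocols. The authors deposited log2 values for 35556 probe sets on 17 arrays, made by RMA in Partek 5.6 per the submitters' processing notes. The build and further settings were not given in the sources used here. All values were present. Single-symbol probe sets numbered 21789, while 1621 listed several symbols and 12146 listed none, and 19938 genes remained. Groups came from the tissue, source and model labels.

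Tests were two-sided and used limma 3.58.1 (lmFit, then eBayes) under R 4.3.3, with Benjamini-Hochberg adjustment over all genes and a threshold of 0.05. Tumours against normal tissue used all 17 arrays as 3 groups, and tumour groups were compared on the 12 tumour arrays. The fits were tested on simulated data. The genes and lists described here were chosen with earlier results of these data known. Every measured gene of the group is named. For the 8 with the smallest adjusted p in each comparison against normal tissue, the normal samples are given by array. The p53 tumours are given by array for their 8, and the Rb/p53 tumours by lowest, median and highest value for theirs. Up to 3 called genes of each list are named, and the promoters shown are those with an E2F site. Alternatives were limma settings, array weights, a filter below the 25th percentile, renormalisation, the mean of probe sets, a log2 fold of at least 1, other sets of arrays, the mitosis covariate and each array left out; those without p53 replicate 2 in the first and last comparisons, and those leaving out or moving 2 arrays together, were chosen after seeing the data.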

Additional observations from a re-analysis of the deposited data

Results flagged for a closer look

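In 93 sets of arrays (the 31 genes in groups of 4 to 10 arrays), the highest or lowest array was set against the others by Dixon's test, which chance alone passes in about 1 of 20 groups; 4 sets passed. Nbn read 8.39 in Rb/p53 MMTV-Cre replicate 6, with the nearest Rb/p53 tumour at 9.03. It passed both among all 9 Rb/p53 tumours and among the 7 MMTV-Cre tumours. These 7 are part of the 9, so the same value is counted in both sets. Atr read 9.45 in MMTV-Cre replicate 2, the highest Rb/p53 tumour, with the nearest at 9.09. Chek1 read 6.94 in normal replicate 1, with the nearest normal sample at 9.12.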

How the results depend on the processing

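No paired analysis was possible because the labels give the groups no shared replicate numbers. In Rb/p53 tumours against normal tissue, where 8 genes passed upwards and 1 downwards, leaving out 1 array of either group in turn gave 4 to 15 and 0 to 1. Those fits called 22.1% to 27.1% of all genes. The counts were 16 and 2 with array weights (38.2% of all genes called, against 27.6%). Only the arrays compared gave 15 and 1 (34% of all genes), and leaving out p53 replicate 2 gave 15 and 1 (33.7%). MMTV-Cre tumours alone gave 5 and 0 (24.4%) and Ad-Cre tumours alone 2 and 0 (9.89%). A log2 fold of at least 1 as well gave 4 and 0 (8.18% of all genes called, 630 of them higher). The tumours not labelled as transplants alone gave 0 and 0 (10.1%, 674 of them higher). The mitosis covariate gave 0 and 2 (14.2% of all genes called), with Brca1 at -0.15, Fancb at -0.068 and Chek1 turned downwards (adjusted p = 0.0137). In p53 tumours against normal tissue, where 0 passed upwards and 2 downwards, leaving out 1 array of either group gave 0 to 7 and 1 to 2. Those fits called 16.2% to 26.9% of all genes. Array weights gave 6 upwards (24% of all genes called, against 20.4%), and either renormalisation 1 (21.4% and 20.9%). Leaving out both normal replicate 1 and p53 replicate 2 gave 4 and 1 (18.6% of all genes). Moving p53 replicate 3 with replicate 2 left out gave 2 and 1 (16% of all genes). Downward counts were 0 with the added fold limit (8.11% of all genes called) and 1 with only the arrays compared (15.1%). The covariate gave 4 downwards (32.5% of all genes called, 2898 of them lower). Between the tumour genotypes 0 became 0 to 1 upwards with 1 array left out (at most 6.81% of all genes called). It became 3 with p53 replicate 3 moved (10.3%). Between Cre routes 0 genes passed under each alternative run. The cause of each change was not tested, except that the added limit on fold can only remove calls. The calls on Rad51c and Fancd2 against normal tissue were lost under 2 alternatives, the covariate and the tumours not labelled as transplants alone.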
